A study of Mus musculus with 8 samples.

Results

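Tumor and normal liver were compared at 10 genes that release, bind or import fatty acids. They are the lipases Lpl, Lipc and Lipg, the fatty acid binding proteins Fabp1, Fabp2, Fabp4 and Fabp5, the membrane receptor Cd36, and the fatty acid transport proteins Slc27a2 and Slc27a4. They were chosen by name, through the RefSeq accession that each array probe carries, with earlier results of these data known. All 10 were on the array, with 11 probes, among 20145 genes that the probes named. All 10 also passed the filter on dim probes, which left 14312 genes tested. Lipg passed it through the control channel alone. Lipc, Fabp1 and Slc27a2, which are known mainly as products of adult hepatocytes, formed an adult liver set of 3 genes. The other 7, known mainly from tissues outside the adult hepatocyte, formed an extrahepatic set.

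The tumor samples were 8 hepatocellular carcinomas (HCC) of male mice with a knockout (KO) of miR-122, the most abundant microRNA of hepatocytes. The control was liver of miR-122 floxed males matched for age, whose gene is flanked by recombination sites. Both genotypes were on a mixed background of C57BL/6J and 129S/Svj. The labels give neither the driver of the deletion, the ages, nor whether the control RNA came from 1 animal or several. Each array held 1 tumor labelled with Cy5 and control liver labelled with Cy3, so a dye effect and a tumor effect have the same sign on every array. No tumor-free KO liver was among the samples, so loss of the microRNA and tumor growth cannot be told apart. No label ties a tumor to an animal, so the p-values measure the spread between these 8 samples.

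Triglyceride in the blood travels inside lipoproteins, and lipases on the vessel wall split it into fatty acids that nearby cells take up. Lipoprotein lipase acts mostly in fat, muscle and heart, where GPIHBP1 carries it to the capillary surface, and adult liver makes little of it. Hepatic lipase is made by hepatocytes and works on remnants and high-density lipoprotein in the liver sinusoids. Inside a cell, fatty acids are carried by small binding proteins, of which FABP1 is the abundant form of hepatocytes, FABP2 of the gut lining, FABP4 of adipocytes, macrophages and capillary endothelium, and FABP5 of skin and many other tissues.

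The share of probes well above background was 38.5% to 51.9% in tumor, lowest in tumor 8, and 45.1% to 54.3% in control. All 11 hepatocyte markers measured were well above background in both channels of every array. The control channels of arrays 1 and 2 were the most alike of any pair, with an r of 0.995 across genes (which are no independent replicates). The control channel of array 8 held skeletal muscle transcripts. There 15 muscle markers summed to a normalized intensity of 113363, against 1965 to 2368 in the controls of the other arrays and 7869 in its own tumor channel. Values of the 7 genes called are given below with and without arrays 1, 2 and 8.

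The adult liver set fell and most of the extrahepatic set did not. A call required a change of at least 2-fold and a limma p, adjusted by Benjamini-Hochberg over all genes tested, under 0.05. All 3 adult liver genes were called lower in tumor. Of the 7 extrahepatic genes, 4 were called higher (Lpl, Fabp4, Fabp5 and Cd36), 0 lower, and 3 were not called (Lipg, Fabp2 and Slc27a4). Over all genes tested, 9.54% were called higher, 5.94% lower and 15.5% in either direction. The median log2 ratio of tumor over control was -2.37 in the adult liver set and 1.30 in the extrahepatic set, against 0.03 over all genes tested. On each array, the mean log2 ratio of the adult liver set lay below 0 (-3.43 to -1.47) and that of the extrahepatic set above 0 (0.39 to 1.81). The median of the extrahepatic set lay below 0 on arrays 1, 3 and 8 (-0.31, -0.11 and -0.08), so most of its 7 genes did not rise there. For 6 of the 10 genes the sign of the ratio was shared by all 8 arrays. For 5 of them the normalized levels of the tumor and control channels did not overlap, which held for 16.8% of all genes tested.

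**Figure D1:**
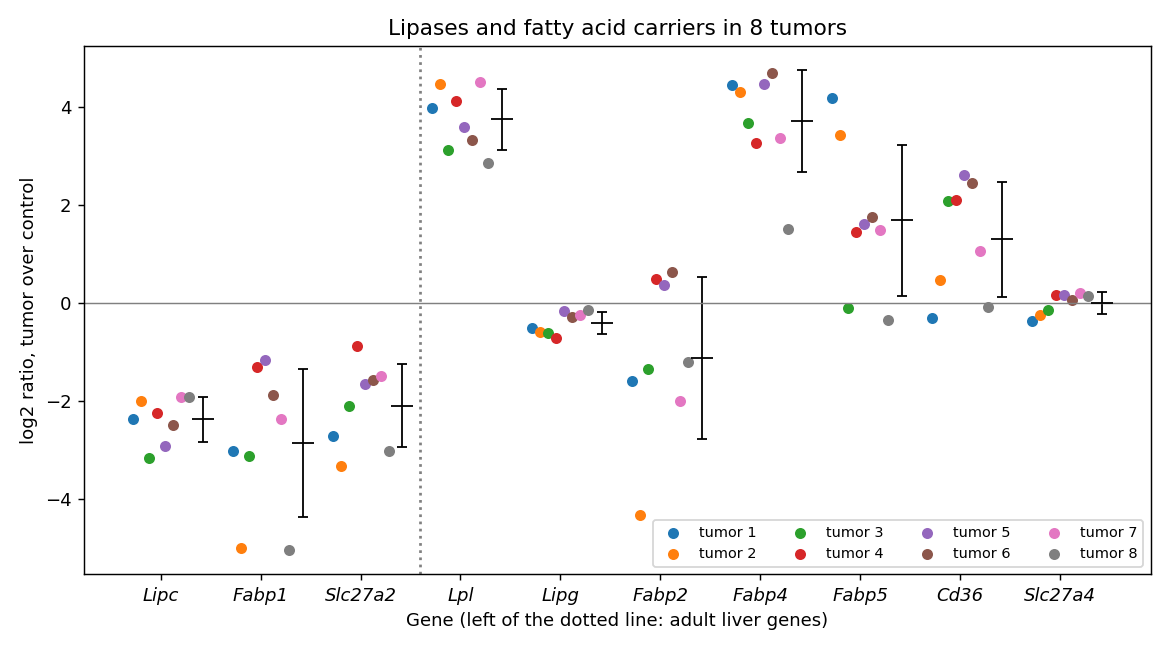
The log2 ratio of tumor over control (vertical axis) is plotted for each of the 10 genes (horizontal axis), with 1 point per array and, in black, the mean and SD over 8 arrays. Lipc, Fabp1 and Slc27a2 lie below 0 in all 8 tumors and Lpl and Fabp4 above 0 in all 8, while Fabp2, Fabp5, Cd36 and Slc27a4 have points on both sides of 0.

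Lpl encodes lipoprotein lipase. Its normalized log2 intensity had a lowest value of 13.11, a median of 13.65 and a highest of 14.99 in the tumor channel, and 9.38, 10.09 and 10.72 in control. The lowest tumor thus lay above the highest control. The log2 ratio was 3.75 ± 0.62 (SD, n = 8), which is 13.4-fold, and was above 0 on 8 arrays (limma adjusted p = 1.31e-06). Tumor 7 had the highest ratio (4.51) and tumor 8 the lowest (2.86). A second probe of the same transcript gave a smaller rise of 2.01 ± 0.42, also above 0 on 8 arrays (adjusted p over probes = 7.84e-06). The size of the rise therefore depends on the probe, and its direction does not.

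Lipc encodes hepatic lipase and ran the other way. Its levels were 7.56, 8.22 and 9.14 (lowest, median and highest) in tumor and 9.92, 10.74 and 11.05 in control. The 2 channels did not overlap. The log2 ratio was -2.37 ± 0.46, which is 5.17-fold lower (adjusted p = 4.12e-06), and ranged from -3.15 in tumor 3 to -1.90 in tumor 8. Its SD was the smallest of the 7 genes called.

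Lipg encodes endothelial lipase, which acts mainly on high-density lipoprotein. It was not well above background in any tumor channel and was so in 5 control channels. Its measured mean level was 6.00 in tumor and 6.40 in control, and the log2 ratio was -0.40 ± 0.22, below 0 on 8 arrays (adjusted p = 0.00465) and too small for a call. Taken against the lowest signal well above background, Lipg was at least 1.20-fold lower in tumor, a bound that is open to dye bias. No fall is read from it, since it entered the test through control alone.

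Genes for proteins that mature, activate or inhibit these lipases had calls in both directions, as the plot of log2 ratios for lipase partners shows. Of 19 partners tested, 2 were called higher and 7 lower, against 9.54% and 5.94% of all genes tested. The median log2 ratio of the partners was -0.47. Gpihbp1, which anchors lipoprotein lipase to capillaries, had a ratio of 0.11 ± 0.78 (adjusted p = 0.718), above 0 on 4 arrays. Lmf1, an endoplasmic reticulum protein that lipases need to fold, fell by 1.06 on the log2 scale (SD 0.43, adjusted p = 2.44e-04). Sel1l, which acts with it on lipoprotein lipase, fell by 1.14 (SD 0.33, adjusted p = 5.47e-05). Both were below 0 on 8 arrays.

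Several secreted partners made by hepatocytes fell as well, but not all. Angptl8 (0.45 ± 1.83) and Apoe (-0.45 ± 0.42) were not called. Apoc4, an apolipoprotein of the Apoe gene cluster, had a log2 ratio of -2.12 ± 0.52 and Angptl6 one of -1.97 ± 0.63. Apoa5, an activator of lipoprotein lipase, fell by 1.60 (SD 0.89) and Apoc3, an inhibitor of it, by 1.36 (SD 0.33). Angptl4, another inhibitor, fell by 1.43 (SD 1.29, adjusted p = 0.0121), with a ratio of 0.73 in tumor 8 and below 0 in the others. Apoc1 (-0.81 ± 0.36) was below 0 on 8 arrays and under the size for a call. Apoa4 (1.64 ± 1.73, adjusted p = 0.0245) and the sorting receptor Sorl1 (1.46 ± 1.34, adjusted p = 0.0129) were the partners called higher. The call of Apoa4 was lost without tumor 3, 4, 5 or 6 (ratio as low as 1.31, adjusted p up to 0.0625). Without arrays 1, 2 and 8 its ratio was 2.49 (adjusted p = 0.00795).

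Other lipases and the lipoprotein receptors were also measured. Of 12 other lipases tested, 1 was called higher and 3 lower, with a median of -0.25. Mgll, the monoacylglycerol lipase, fell by 2.08 (SD 1.19), Ces1d by 1.97 (SD 1.19) and Aadac by 1.69 (SD 0.66). Without arrays 1, 2 and 8 the ratio of Mgll was -1.41 and still called. Ces1d is one of several near-identical carboxylesterases whose signals can mix. Pla1a, a phospholipase of the same family as Lipc, rose by 1.40 (SD 0.43, adjusted p = 5.11e-05). Of 11 receptor genes, Vldlr, the very low density lipoprotein receptor, was called higher (1.18 ± 0.72, adjusted p = 0.00188) and 0 were called lower. The other tested probe of Vldlr gave a ratio of 0.37.

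**Figure D2:**
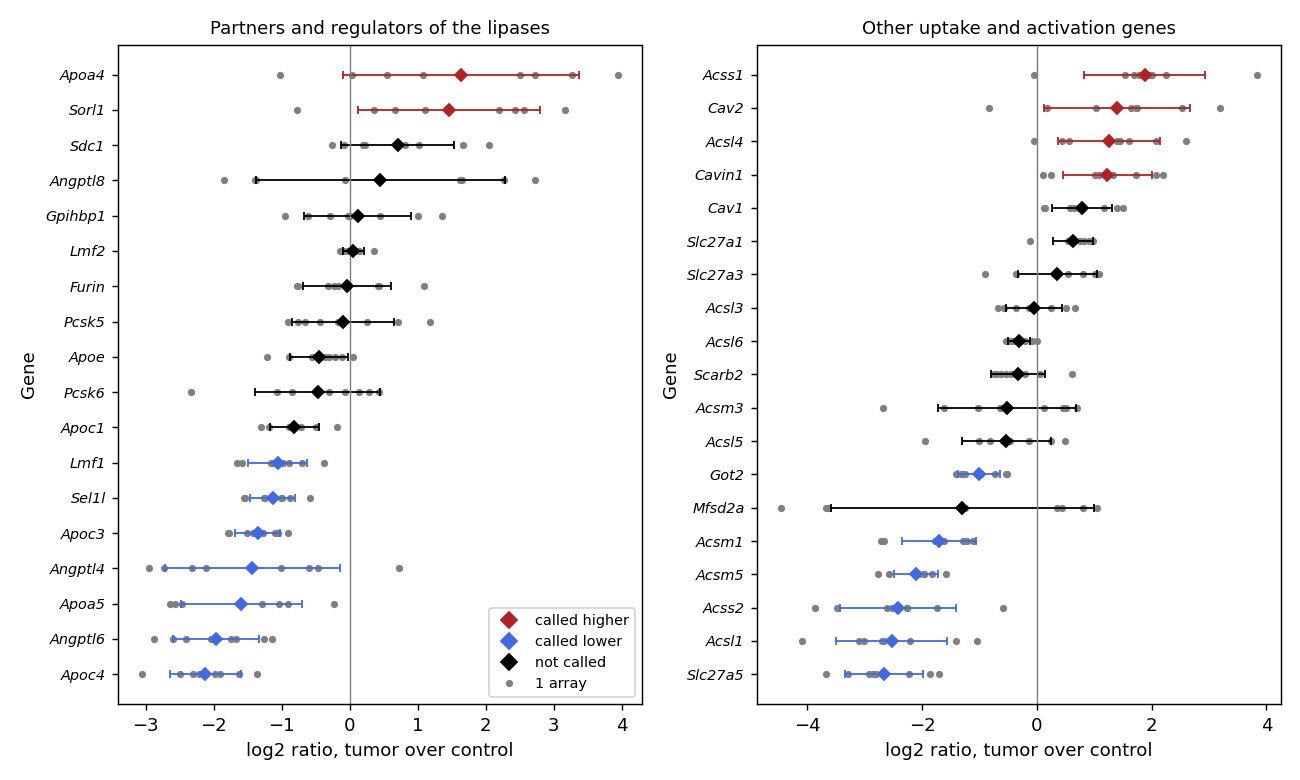
Each row is a gene, the horizontal axis is the log2 ratio of tumor over control, small grey points are the 8 arrays and diamonds with bars the mean and SD. Red diamonds were called higher, blue lower and black not called: 2 higher and 7 lower among 18 of the 19 lipase partners on the left, and 4 higher and 6 lower of 19 uptake and activation genes on the right.

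Fabp1, the main fatty acid binding protein of hepatocytes, fell in every tumor but by very different amounts. Its levels were 12.88, 15.05 and 16.11 (lowest, median and highest) in tumor and 17.24, 17.66 and 17.97 in control. The channels did not overlap, and the tumors varied more (SD 1.23) than the controls (SD 0.31). The log2 ratio was -2.86 ± 1.505, which is 7.24-fold lower (adjusted p = 6.77e-04). Tumors 8 and 2 had the lowest ratios (-5.04 and -4.98), and tumors 5 and 4 those nearest to 0 (-1.17 and -1.30).

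Fabp2, the intestinal form, was not called. It was well above background in all 8 control channels, so the name of its set does not mean absence from normal liver. Its levels were 11.10, 13.78 and 14.58 in tumor and 13.27, 13.72 and 15.42 in control, which overlapped. Its ratio was -1.12 ± 1.66 on the log2 scale (adjusted p = 0.0847) and was above 0 in 3 tumors (0.49, 0.38 and 0.63 in tumors 4, 5 and 6). It was lowest in tumor 2 (-4.32). The difference thus stayed within the spread between arrays.

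Fabp4 is the form of adipocytes, macrophages and capillary endothelium. Its levels were 12.65, 13.76 and 14.82 in tumor and 9.53, 9.93 and 11.15 in control. The lowest tumor lay above the highest control, and both of these were on array 8. The log2 ratio was 3.72 ± 1.04, which is 13.1-fold (adjusted p = 1.83e-05). It ranged from 3.27 to 4.69 on arrays 1 to 7 and was 1.51 on array 8. Without array 8 it was 4.03 (adjusted p = 1.95e-06).

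Adipocyte, macrophage and endothelial markers, of cell types known to make Fabp4, Lpl or Cd36, had calls in both directions. Of 7 adipocyte markers tested, 1 was called higher (Slc2a4) and 1 lower (Cfd). Cfd was well above background in 8 control channels and 1 tumor channel. It thus passed the filter through control alone, and no fall is read from it. Adipoq, Plin1 and Lep, which define adipocytes, were well above background in 0 tumor channels and in 4, 1 and 0 control channels. Retn was so in 1 tumor channel and 3 control channels. Cidec, Slc2a4, Pparg, Lipe and Adrb3 were so in all 8 tumor and all 8 control channels. The 10 adipocyte markers measured summed to 3361 to 16237 in tumor and 2466 to 15512 in control. The highest sums rest mainly on Cidec, whose levels were highest in the same tumor 7 (13.68) and control 1 (13.63). Of 13 macrophage markers tested, 3 were called higher and 4 lower, and their summed level was 17467 to 58309 in tumor and 22660 to 56043 in control. Trem2 (2.75 ± 1.02) and Gpnmb (2.47 ± 1.16), macrophage genes of lipid-rich tissue, rose, and the Kupffer cell marker Clec4f (-3.33 ± 1.11) fell. Timd4, another Kupffer cell marker and one of the 4 called lower, was well above background in 8 control channels and 0 tumor channels, so its size is not given. Of 14 endothelial markers, 1 was called higher and 1 lower, with summed levels of 20358 to 45449 in tumor and 28207 to 31493 in control. Of 12 stellate cell and fibroblast markers, 6 were called higher and 0 lower, among them the collagens Col1a1 (3.65 ± 1.20) and Col1a2 (3.00 ± 1.21). Their summed level was 17970 to 99280 in tumor, lowest in tumor 8, and 36182 to 48791 in control. Of 11 hepatocyte markers, 0 were called higher and 4 lower, and their median ratio lay below 0 on each array (-1.21 to -0.34). The part of these cells in the rises of Lpl, Fabp4 and Cd36, and in the falls of the adult liver set, was not tested. In bulk tissue, more cells of a type and more RNA per cell cannot be told apart.

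Fabp5 rose with a wide spread. Its levels were 12.42, 14.60 and 15.82 in tumor and 11.19, 12.84 and 14.39 in control, which overlapped. Tumor over control was 1.69 ± 1.55 on the log2 scale, which is 3.22-fold (adjusted p = 0.0127), and was above 0 on 6 arrays. The highest ratios were those of tumors 1 and 2 (4.19 and 3.43), whose controls had the lowest levels (11.64 and 11.19). The ratios of tumors 3 and 8 lay below 0 (-0.11 and -0.34). The control of array 3 had the highest level of the controls (14.39), and tumor 8 the lowest of the tumors (12.42).

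Fabp5 and Fabp4 lie in a cluster of binding protein genes on chromosome 3, in the order Fabp5, Pmp2, Fabp9, Fabp4 and Fabp12. Pmp2 and Fabp9 did not pass the filter. Fabp12 had a ratio of 0.68 ± 0.78 and was not called (adjusted p = 0.0377). Of 10 other lipid binding proteins tested, 2 were called higher and 2 lower. Rbp7, a retinol binding protein of capillary endothelium and fat, was among those called higher. It was well above background in 8 tumor channels and 2 control channels. Rbp7 thus passed the filter through tumor alone, and its size is not given. Fabp7, the brain form, fell by 2.16 (SD 0.57), and Scp2, a sterol carrier of peroxisomes, fell by 1.40 (SD 0.43).

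Cd36 is a scavenger receptor that brings long-chain fatty acids into macrophages, adipocytes and muscle and is low in normal mouse liver. Its levels were 10.47, 11.29 and 12.06 in tumor and 9.03, 9.89 and 11.30 in control, which overlapped. The log2 ratio was 1.30 ± 1.17, which is 2.46-fold (adjusted p = 0.0120), and was above 0 on 6 arrays. It was 1.06 to 2.62 on arrays 3 to 7, against -0.31, 0.48 and -0.08 on arrays 1, 2 and 8. Those 3 arrays had the highest levels in the control channel (10.78, 10.56 and 11.30). Without them, an alternative that was added once the values were known, the ratio was 2.06 (adjusted p = 6.40e-04).

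Slc27a2 is a fatty acid transport protein and very long chain acyl-CoA synthetase of liver and kidney. Its levels were 13.79, 14.65 and 15.22 in tumor and 16.09, 16.47 and 17.33 in control, with no overlap. Tumor over control stood at -2.09 ± 0.85 (log2), which is 4.25-fold lower (adjusted p = 1.66e-04). It was lowest in tumors 2, 8 and 1 (-3.32, -3.01 and -2.71) and nearest to 0 in tumor 4 (-0.88). Slc27a4, the transport protein of gut and skin, did not differ beyond its spread. Its levels were 6.80, 7.17 and 7.33 in tumor and 7.01, 7.16 and 7.32 in control, and its ratio was 0.00 ± 0.22 (adjusted p = 0.990). The ratio was below 0 on arrays 1, 2 and 3 and above 0 on the other 5.

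Of 19 other uptake and activation genes tested, 4 were called higher and 6 lower, with a median of -0.33. Slc27a5, the bile acid and fatty acid ligase of hepatocytes, fell by 2.66 (SD 0.68). Acsl1, the main long-chain acyl-CoA synthetase of liver, fell by 2.53 (SD 0.97), Acss2 fell by 2.42 (SD 1.01) and Acsm5 fell by 2.11 (SD 0.39). The acyl-CoA synthetase Acsl4, which favours arachidonic acid, rose by 1.26 (SD 0.89) and the mitochondrial Acss1 by 1.88 (SD 1.06). Cavin1 (1.22 ± 0.78) and Cav2 (1.40 ± 1.27), both of caveolae, rose as well. The other tested probe of Cav2 gave 0.75. Without arrays 1, 2 and 8, Acsl4 stood at 0.79 and was no longer called.

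The control channels of arrays 1, 2 and 8 also had the highest levels of Fabp1 (17.92, 17.97 and 17.91) and of Slc27a2 (17.30, 17.33 and 16.80). For Fabp2 they were again the highest 3 (15.41, 15.42 and 15.19, against 13.27 to 13.95 on the others). The plot of channel levels by array shows this for Fabp1, Slc27a2, Cd36 and Fabp2. On these arrays a list of 21 known targets of the fatty acid receptor PPARA summed to 1098550, 1164660 and 973069 in the control channel, against 305884 to 426516 on the others. In the tumor channel the sums were 137295 to 305961. Fabp1, Slc27a2 and Cd36 are themselves known targets of this receptor. The part of the state of the control livers in the ratios was not tested.

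Without arrays 1, 2 and 8, the 4 calls of higher and 3 of lower members all remained. The ratio of Fabp1 was then -1.96 (adjusted p = 0.00201) and that of Slc27a2 was -1.53 (adjusted p = 7.08e-04), both nearer to 0. Fabp2 stood at -0.37 (adjusted p = 0.501) and Fabp5 at 1.24 (adjusted p = 0.0102). Lpl (3.74), Fabp4 (3.89) and Lipc (-2.54) lay close to their values on all arrays. Of the 21 PPARA targets, 1 was called higher and 8 lower on all arrays, and 1 higher and 4 lower without these 3. With any single array left out, 5 to 9 were called lower and 0 to 1 higher. The target called higher was Fgf21, a hormone of the fasted liver (1.81 on all arrays, 3.22 without these 3), and it lost its call without any 1 of tumors 3, 4, 5, 6 and 7. Cyp4a10 (-2.87 ± 3.53) and Cyp4a31 (-2.94 ± 3.62), near-identical copies, lost their calls without any 1 of tumors 1, 2, 3, 7 and 8, and stood at -0.96 and -0.95 without arrays 1, 2 and 8.

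**Figure D3:**
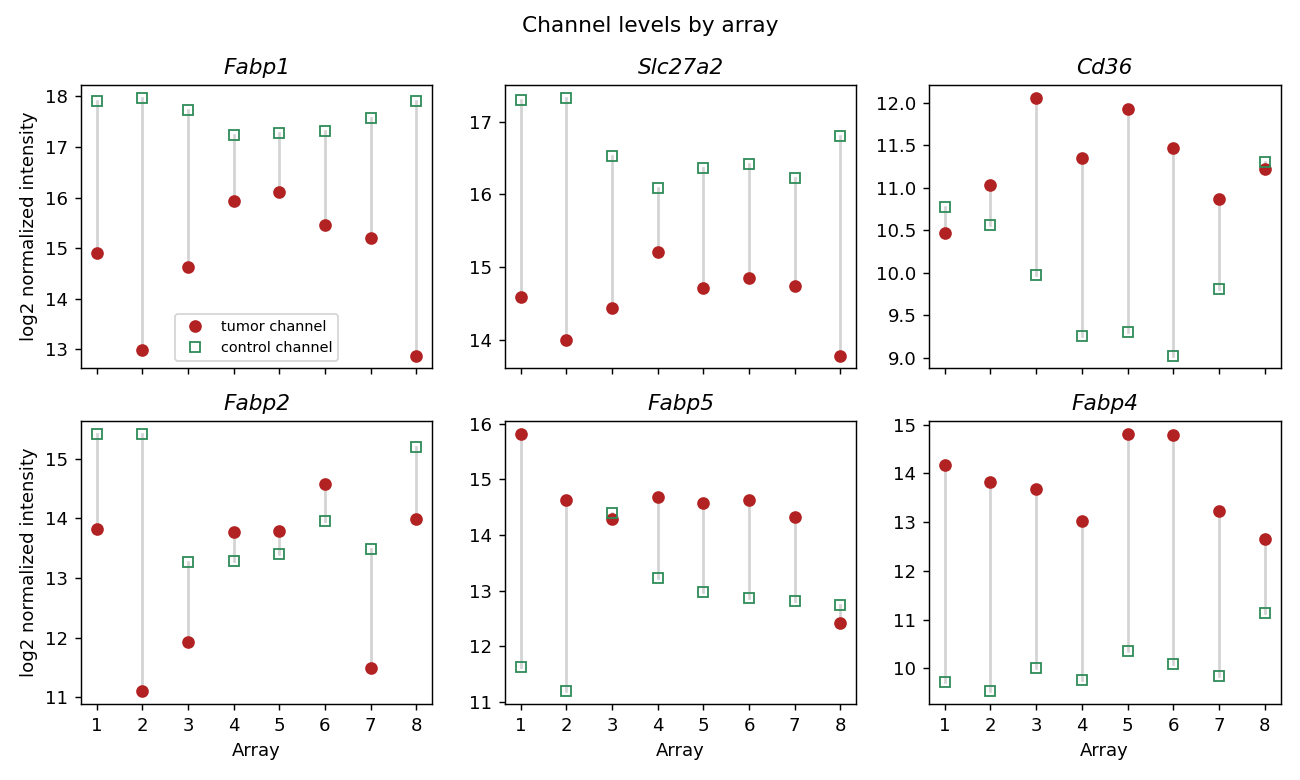
Normalized log2 intensity (vertical axis, with its own range in each panel) of 6 genes is plotted by array (horizontal axis), with red circles for the tumor channel and open green squares for the control channel of the same array. The control squares of arrays 1, 2 and 8 are the highest 3 for Fabp1, Slc27a2, Cd36 and Fabp2, and those of arrays 1 and 2 are the lowest for Fabp5.

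The control channel of array 8 also stood apart at Fabp3 and Fabp4. Fabp3, the binding protein of heart and skeletal muscle, had a control level of 12.66 there, against 6.40 to 6.73 on the other arrays. Its log2 ratio was -4.90 on array 8 and -0.38 to 0.28 on the others, with a mean of -0.59 and no call (adjusted p = 0.372). Fabp4 and Cd36 had their highest control levels on this array (11.15 and 11.30). Lpl did not, with 10.63 on array 8 and 10.72 on array 6. Adipoq also had its highest control level there (7.81, against 5.93 to 6.78). The part of muscle or fat RNA in the control levels of Fabp4 and Cd36 was not tested.

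**Figure D4:**
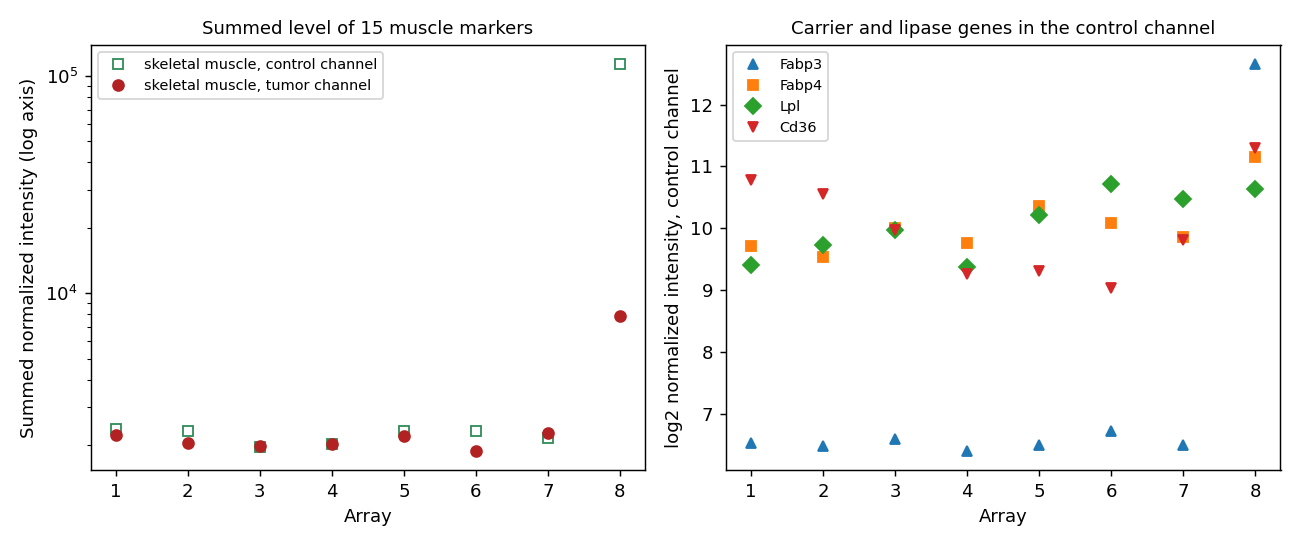
The left panel gives the summed normalized intensity of 15 skeletal muscle markers (log axis) by array in both channels, and the right panel the normalized log2 intensity of 4 genes in the control channel by array. The control of array 8 stands at 113363 on the left and has the highest point of Fabp3, Fabp4 and Cd36 on the right, where only points of the same gene can be compared.

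Promoter sequences are shown for the 4 genes whose control levels were high together on arrays 1, 2 and 8, since PPARA acts through a repeat of AGGTCA spaced by 1 base. They are the 250 bases before the RefSeq start, on the gene's strand, in GRCm38.p6. Fabp1 lies at chr6:71199629-71199878 (+), Slc27a2 at chr2:126552774-126553023 (+), Fabp2 at chr3:122894822-122895071 (+) and Cd36 at chr5:17835897-17836146 (-), the last being the start that the table holds for a gene with several. Capitals mark matches to that repeat (AGGTCA, any 1 base, AGGTCA), on either strand, with at most 2 of its fixed letters different. The windows of Slc27a2 and Fabp2 hold no such match and are therefore all in lower case.
Fabp1: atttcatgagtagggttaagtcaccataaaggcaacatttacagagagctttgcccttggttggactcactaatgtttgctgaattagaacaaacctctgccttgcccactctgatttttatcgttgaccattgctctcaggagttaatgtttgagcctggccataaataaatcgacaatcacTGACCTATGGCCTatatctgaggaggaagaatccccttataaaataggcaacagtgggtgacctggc
Slc27a2: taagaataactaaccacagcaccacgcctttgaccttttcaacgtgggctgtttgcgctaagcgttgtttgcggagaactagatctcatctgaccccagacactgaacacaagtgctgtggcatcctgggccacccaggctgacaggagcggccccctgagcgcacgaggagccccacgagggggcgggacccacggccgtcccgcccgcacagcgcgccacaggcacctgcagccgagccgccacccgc
Fabp2: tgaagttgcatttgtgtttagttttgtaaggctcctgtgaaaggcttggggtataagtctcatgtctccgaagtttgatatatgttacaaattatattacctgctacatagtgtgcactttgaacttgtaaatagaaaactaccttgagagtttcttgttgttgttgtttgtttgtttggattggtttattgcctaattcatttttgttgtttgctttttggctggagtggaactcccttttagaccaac
Cd36: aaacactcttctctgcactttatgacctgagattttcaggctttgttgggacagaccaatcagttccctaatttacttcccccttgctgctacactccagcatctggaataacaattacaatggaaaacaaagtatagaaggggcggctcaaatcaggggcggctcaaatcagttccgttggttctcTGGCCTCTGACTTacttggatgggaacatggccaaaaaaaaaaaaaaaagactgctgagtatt

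The reference used held no promoter of Lpl, Lipg, Fabp4 or Fabp5, so the shares here do not cover them. A match to the repeat was found in 3 of 7 promoters of 6 member genes, against 3.24% of 32851 promoters. The 3 were those of Fabp1, Cd36 and the downstream of the 2 starts of Lipc. That of Fabp1 lies 67 to 55 bases before the start and differs by 1 letter. That of Cd36 lies 63 to 51 bases before it and differs by 2 letters. The single unit AGGTCA, which can overlap the repeat, was in 4 of the 7 promoters and in 4607 of all 32851. A TATAAA box was in 1 of the 7 (Fabp1) and in 12.4% of all. A site of the HNF1 type (GTTAAT and ATTAAC around any 1 base, at most 2 letters different) was in 0 of the 7 and in 1.24% of all. A site of the CEBP type (TTGCGCAA, at most 1 letter different) was in 1 of the 7 (Slc27a2) and in 5.08% of all. Matches describe these letters in this window and not binding.

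Among 21 transcription factors and cofactors known to control these genes, 0 were called higher and 1 lower. At an unadjusted p under 0.05 the counts were 3 higher and 10 lower. Gata4, a factor of hepatocytes and sinusoidal endothelium, fell by 1.05 (SD 0.25, adjusted p = 2.73e-05). Ppara itself had a ratio of -0.99 ± 0.80 (adjusted p = 0.00777), just under the size for a call, and Ppard one of 0.96 ± 0.71 (adjusted p = 0.00526). Pparg, the adipogenic receptor that drives Lpl, Fabp4 and Cd36 in fat cells, had a ratio of 0.00 ± 0.63 (adjusted p = 0.992), above 0 on 4 arrays. Of 13 adipogenic genes tested, 1 was called higher and 3 lower, with a median of -0.33. Cfd, which passed the filter through control alone, was among those called lower.

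Genes whose log2 ratios were closest in value to those of the called members were found by the mean absolute difference over the 8 arrays. This measure does not show whether 2 genes vary together from array to array. Nearest to Lpl were Neurl1a and Cd24a, each at 0.42. Nearest to Fabp4 were Ms4a7 (0.43) and Itga6 (0.47). Nearest to Lipc were Bmp2 (0.26) and Cadps2 (0.32). Slco2b1 (0.37) was among the 2 nearest to Slc27a2, and Slc9b2 (0.46) and Mfap4 (0.499) were nearest to Cd36. The nearest genes were farther off for Fabp5 (Grk3 at 0.63 and Tmem45a at 0.64) and for Fabp1 (Il1rap at 0.72 and Cyp2d37-ps at 0.76).

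The arrays lay in 2 rows of 4 on 1 slide. In row 1 alone (arrays 1 to 4) the log2 ratios were 3.93 for Lpl and -2.43 for Lipc, and in row 2 alone (arrays 5 to 8) they were 3.57 and -2.31. Fabp4 stood at 3.92 and 3.51, Fabp1 at -3.10 and -2.61 and Slc27a2 at -2.25 and -1.93. These 5 genes were called in each row. Fabp5 (2.24 and 1.13) and Cd36 (1.09 and 1.51) kept their sign in both rows and passed in neither (adjusted p 0.0527 and 0.0881 for Fabp5, 0.104 and 0.0772 for Cd36). With the row as a block, both were called (adjusted p = 0.0132 and 0.0163). With any single array left out, the members called higher were 4 and those called lower 3.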

How the data were processed

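Signals of 8 Agilent arrays of 2 colours were analysed, 1 tumor (red, Cy5) and control liver (green, Cy3) on each. The deposited scanner files hold intensity values of each spot and its background; per the file headers they were made with Agilent Feature Extraction 10.9.1.1 (10.9 in the submitters' processing notes), and the processed intensity is background-subtracted, detrended and dye-normalized. Direction was taken from the dyes in the labels.

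Median signals were corrected with normexp (offset 50) and normalized by loess within arrays, with control spots and outliers at weight 0 (limma 3.58.1 in R 4.3.3). Probes entered the test where 1 channel or both stood well above background on 4 arrays or more, and a gene was its brightest tested probe. Of 55681 probes, 26582 were named by accession through RefSeq of GRCm38.p6, a later build than that of the array design. Probe positions were not used. Levels are after Aquantile normalization and are compared only within a gene. limma (lmFit and eBayes) tested the mean log2 ratio against 0. Errors are SDs over 8 arrays, and the number of arrays limits the precision.

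Named genes are all members, up to 4 called genes in each direction of each list, and the 2 nearest genes of each called member. The text also gives other list genes and markers, chosen after their values were seen. Those list genes are Gpihbp1, Lmf1, Sel1l, Apoc3, Apoc1, Apoe, Angptl8, Fabp3, Fabp12, Ppara, Ppard and Pparg. Of lists not described in the results, intestinal markers had 3 called higher and 0 lower of 5, bile duct 3 and 0 of 8, keratinocyte 1 and 1 of 4, and skeletal muscle 0 and 0 of 6. The members and lists were chosen with earlier results of these data known, and the motifs after the data were seen. On simulated data for this comparison, a shift of 1.5 in the log2 ratio was called in 63 of 67 genes, with 2 false calls among 14312 genes. A shift of 0.5, which is under the size for a call, was called in 0 of 67. Some genes that the rule names are not reported here.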

Additional observations from a re-analysis of the deposited data

Results flagged for a closer look

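The log2 ratio of Fabp4 in tumor 8 (1.51) lay far below those of the other 7 arrays (3.27 to 4.69). That of Fabp3 in tumor 8 (-4.90) lay far below the others (-0.38 to 0.28). That of the nuclear receptor Rxrb in tumor 1 (-0.77) lay far below the others (-0.24 to 0.19), and the gene was not called, with a mean of -0.23 over all 8 arrays. The gap of the outermost array was looked at in 81 genes and stood out in 3, where chance alone picks out about 1 in 20.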

How the results depend on the processing

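Lpl, Lipc, Fabp1, Fabp4 and Slc27a2 kept their direction and their call under all 24 alternatives, 23 of them planned. Their log2 ratios ranged from 2.88 to 3.93 for Lpl, -2.76 to -2.26 for Lipc, -3.10 to -1.96 for Fabp1, 3.51 to 4.14 for Fabp4 and -2.26 to -1.53 for Slc27a2. Fabp5 and Cd36 lost their calls in row 1 of the slide alone (2.24 and 1.09) and in row 2 alone (1.13 and 1.51), where 2 members were called higher, with 4 arrays in each fit. In row 2 alone, 848 genes were called higher, against 1365. With the processed signals 2008 genes were called higher and 1531 lower (against 850), for which the cause was not tested. The ratio of Lipg was then -1.86 and past the threshold, a value against tumor channels not well above background from which no fall is read. Lipg could not be fitted under the filter that required all 8 arrays. Slc27a4, at 0.00, changed sign with an offset of 16 (-0.0032), with the processed signals (-0.23), in row 1 alone (-0.14) and without arrays 7 and 8 (-0.0574). With each array left out in turn it ranged from -0.0275 to 0.0543. In the same fits the genes called higher numbered 1292 to 1532 and those called lower 836 to 902. No further pairing was possible, because all samples form 1 group and each log2 ratio already sets a tumor against the control of its array. Low signal limits Lipg, which had no tumor channel well above background.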
